A study of Mus musculus with 3 samples.

Results

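The 4 Hox clusters of the mouse were examined in a map of 2 histone marks made from neural stem cells of the adult brain. Each cluster was taken as a fixed window on the mouse genome build mm9. HoxA was chromosome 6 from 52050000 to 52320000, HoxB was chromosome 11 from 96000000 to 96290000, HoxC was chromosome 15 from 102700000 to 102990000, and HoxD was chromosome 2 from 74430000 to 74660000. Every called region that touched a window by at least 1 bp was a member, whatever its width or score. This gave 17 of the 21998 H3K4me3 regions and 228 of the 117512 H3K27me3 regions, or 245 of 139510 in all.

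The cells came from the subventricular zone, the layer along the lateral ventricles of the forebrain where neural stem cells persist in adults. They were taken from wild-type male mice of the strain C57BL/6, freshly isolated and grown as neurospheres, which are floating aggregates of stem cells and their progeny on dishes that prevent attachment. The ages of the mice, and how many mice or cultures went into a library, were not stated in the sources used here. Chromatin immunoprecipitation and sequencing (ChIP-seq) gave 1 library with an antibody to H3K4me3 (trimethylated lysine 4 of histone H3) and 1 with an antibody to H3K27me3 (trimethylated lysine 27), besides 1 of input DNA that was not analysed here. With 1 library per mark, no value below has a replicate error and no difference was tested. The score of a region is the authors' peak caller's own value. It was used to rank regions within one list and as a cut-off, without setting the scores of one list against those of the other. Scores in both lists pile up at 3100, and 3100 or more is called the top score here. Read depth is unknown, so the absence of a region cannot be set against a detection limit. The libraries were made from bulk cultures, so regions of both marks at one place do not show both marks on one allele or in one cell.

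Hox genes encode homeodomain transcription factors that give cells along the head-to-tail axis of the embryo their positional identity. The clusters arose by duplication of an ancestral one, so genes of the same number in different clusters are paralogs. The order of the genes along a cluster matches the order in which they are used along the body. In the central nervous system their expression belongs to the hindbrain and spinal cord and not to the forebrain. Silent Hox clusters are a classic target of Polycomb repressive complex 2, which lays down H3K27me3. Trithorax-group enzymes lay down H3K4me3 at the promoters of active or poised Hox genes.

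The gene table at hand is RefSeq on GRCm38.p6, another build, so no gene was placed on these regions. The table was used only for names and order. It held all 38 Hox genes considered here, 10 each in HoxA and HoxB and 9 each in HoxC and HoxD. In rising coordinates HoxA ran from Hoxa2 to Hoxa13. HoxB ran from Hoxb13 to Hoxb1, HoxC from Hoxc13 to Hoxc4 and HoxD from Hoxd13 to Hoxd1. The low-coordinate end is thus the side of the low-numbered genes in HoxA and of the group 13 genes in the other 3. Strand was taken from the promoter sequences at hand, for 9 genes of HoxA, 3 of HoxB, 1 of HoxC and 9 of HoxD. It was minus for those of HoxA and plus for those of the other clusters. Between the outermost of these genes the table also listed 23 long noncoding RNA genes and 6 microRNA genes. A check of the cell type against its marker genes would need gene positions on mm9 and was not made.

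The microRNAs show the kinship of the clusters at the level of sequence. Mir10a lies in HoxB and Mir10b in HoxD. Mir196a-1, Mir196a-2 and Mir196b lie in HoxB, HoxC and HoxA, and miR-196 is known to repress Hox transcripts. Their mature sequences follow, from RefSeq on GRCm38.p6, 5′ to 3′, with the seed (bases 2 to 8, which pair with target transcripts) in capitals.
miR-10a-5p: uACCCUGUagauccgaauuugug
miR-10b-5p: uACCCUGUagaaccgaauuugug
miR-196a-5p: uAGGUAGUuucauguuguuggg
miR-196b-5p: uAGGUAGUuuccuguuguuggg
Each pair has one seed, ACCCUGU for miR-10 and AGGUAGU for miR-196, and each pair differs at 1 base outside it.

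Promoter sequence was at hand for 22 of the 38 genes, 9 in HoxA, 9 in HoxD, 3 in HoxB and 1 in HoxC. Both marks are known to favour CpG-rich DNA, so the 250 bases upstream of each start were scored for CpG. The 22 Hox promoters held a median of 12 CpG, from 2 in Hoxd11 to 35 in Hoxa13, against a median of 6 over the 27025 genes in the table. A GC content of at least 50% with at least 0.6 times the CpG expected from base content was found in 9 of 22 (40.9%), against 31.4% of all genes in the table. The Hox promoters thus varied widely among themselves. The 2 group 13 and 2 group 1 genes below, from HoxA, HoxB and HoxD, show part of this range. They are written 5′ to 3′ on the gene's strand (minus for Hoxa13, plus for the others), from RefSeq on GRCm38.p6, with each CpG in capitals.
Hoxa13: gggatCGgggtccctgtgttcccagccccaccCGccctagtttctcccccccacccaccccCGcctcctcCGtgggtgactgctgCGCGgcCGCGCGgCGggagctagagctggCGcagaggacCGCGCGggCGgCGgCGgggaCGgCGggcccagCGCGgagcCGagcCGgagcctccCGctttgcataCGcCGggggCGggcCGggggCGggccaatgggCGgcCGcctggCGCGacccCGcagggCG
Hoxd13: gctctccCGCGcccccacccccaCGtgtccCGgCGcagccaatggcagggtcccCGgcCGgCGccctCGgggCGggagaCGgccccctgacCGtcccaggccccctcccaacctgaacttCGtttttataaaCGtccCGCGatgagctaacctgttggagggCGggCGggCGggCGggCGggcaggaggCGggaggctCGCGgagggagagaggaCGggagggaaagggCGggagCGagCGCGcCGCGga
Hoxb1: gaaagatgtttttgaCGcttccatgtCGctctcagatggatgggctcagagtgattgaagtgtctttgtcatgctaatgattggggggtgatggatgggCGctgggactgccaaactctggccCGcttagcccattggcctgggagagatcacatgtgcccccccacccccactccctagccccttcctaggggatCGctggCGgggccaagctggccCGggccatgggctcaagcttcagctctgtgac
Hoxd1: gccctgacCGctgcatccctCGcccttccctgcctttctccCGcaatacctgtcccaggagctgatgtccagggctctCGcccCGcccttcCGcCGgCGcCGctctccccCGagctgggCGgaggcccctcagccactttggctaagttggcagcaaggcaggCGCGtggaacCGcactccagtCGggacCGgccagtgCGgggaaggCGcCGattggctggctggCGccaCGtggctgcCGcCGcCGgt
Hoxa13 and Hoxd13, which pattern the digits and the tail end of the body, had 35 and 31 CpG. Hoxd1 had 24 and Hoxb1, which specifies a segment of the hindbrain, had 7. Whether a region of either mark covered these promoters was not analysed here.

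All 4 clusters lay under H3K27me3 for most of their length. H3K27me3 regions covered 81.8% of the HoxC window (237.1 of 290.0 kb), 74.3% of HoxB (215.6 of 290.0 kb), 64.3% of HoxD (148.0 of 230.0 kb) and 64.1% of HoxA (173.1 of 270.0 kb). Together they covered 773.8 of 1080 kb, or 71.6%, against 5.68% of the assembled chromosomes. To set each value against its own length, the chromosomes were divided into windows as long as the Hox window, and those touching a Hox window were left out. Only 5 of 9089 such windows (0.055%) were covered as much as HoxC. As much as HoxB was covered by 15 of 9089 (0.165%), as much as HoxA by 39 of 9765 (0.399%), and as much as HoxD by 58 of 11467 (0.506%). The median window had between 1.39 and 1.43% of its base pairs in H3K27me3 regions. These ranks depend in part on the windows drawn, because HoxA and HoxD have flanks with little H3K27me3 inside their windows.

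**Figure D1:**
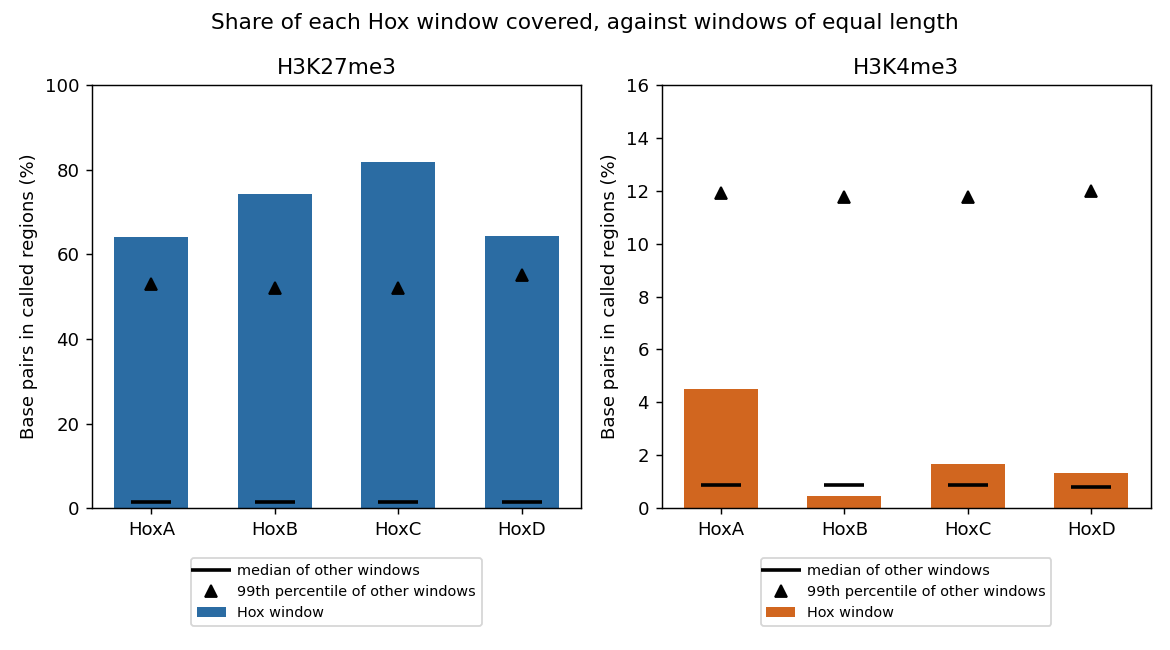
Share of base pairs in called regions (%) of H3K27me3 (left) and H3K4me3 (right) in each Hox window (bars), with the median (line) and 99th percentile (triangle) of all other windows of equal length; there is 1 library per mark, so bars carry no error. All 4 H3K27me3 bars, from 64.1 to 81.8%, stand above the 99th percentile, which is between 51.9 and 55.0%, while all 4 H3K4me3 bars stay below theirs.

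Against the whole list, the H3K27me3 regions in the clusters were wide, high-scoring and closely spaced. Of the 228 regions, 68 (29.8%) were at the top score, against 2.55% of the whole list. Regions of at least 10 kb numbered 17, against 0.433% of the whole list, which is 509 regions. The clusters, with 0.194% of all H3K27me3 regions, thus held 3.34% of those of 10 kb or more. Top-score regions carried 73.0% of the base pairs of the clusters' H3K27me3 regions and 13.7% of those of the whole list. The median distance between neighbouring regions was 406 bp in the windows and 2346 bp over the whole list. Over the whole list, the 2.55% of regions at the top score held 13.7% of the base pairs, so they were wider than average. These measures are therefore not to be read as separate observations.

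The clusters differed in how the high scores were spread. HoxA had 20 of 49 regions at the top score, HoxC 22 of 62, HoxD 15 of 56 and HoxB 11 of 61. HoxB had the fewest of them, yet they summed to 150.4 kb, more than the 138.9 kb of the 20 in HoxA. Its region from 96129195 to 96174602 was 45.4 kb wide, the third widest of all 117512 in the list. Another HoxB region, from 96045980 to 96066626, was 20.6 kb wide and ranked 60th. In HoxA the widest were 22.8 kb (52254320 to 52277147, rank 41) and 21.1 kb (52152345 to 52173467, rank 53). In HoxC the widest was 16.9 kb (102834323 to 102851222, rank 105), and in HoxD it was 13.2 kb (74545380 to 74558563, rank 249). The widest regions of HoxC and HoxD were thus narrower than those of HoxA and HoxB.

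**Figure D2:**
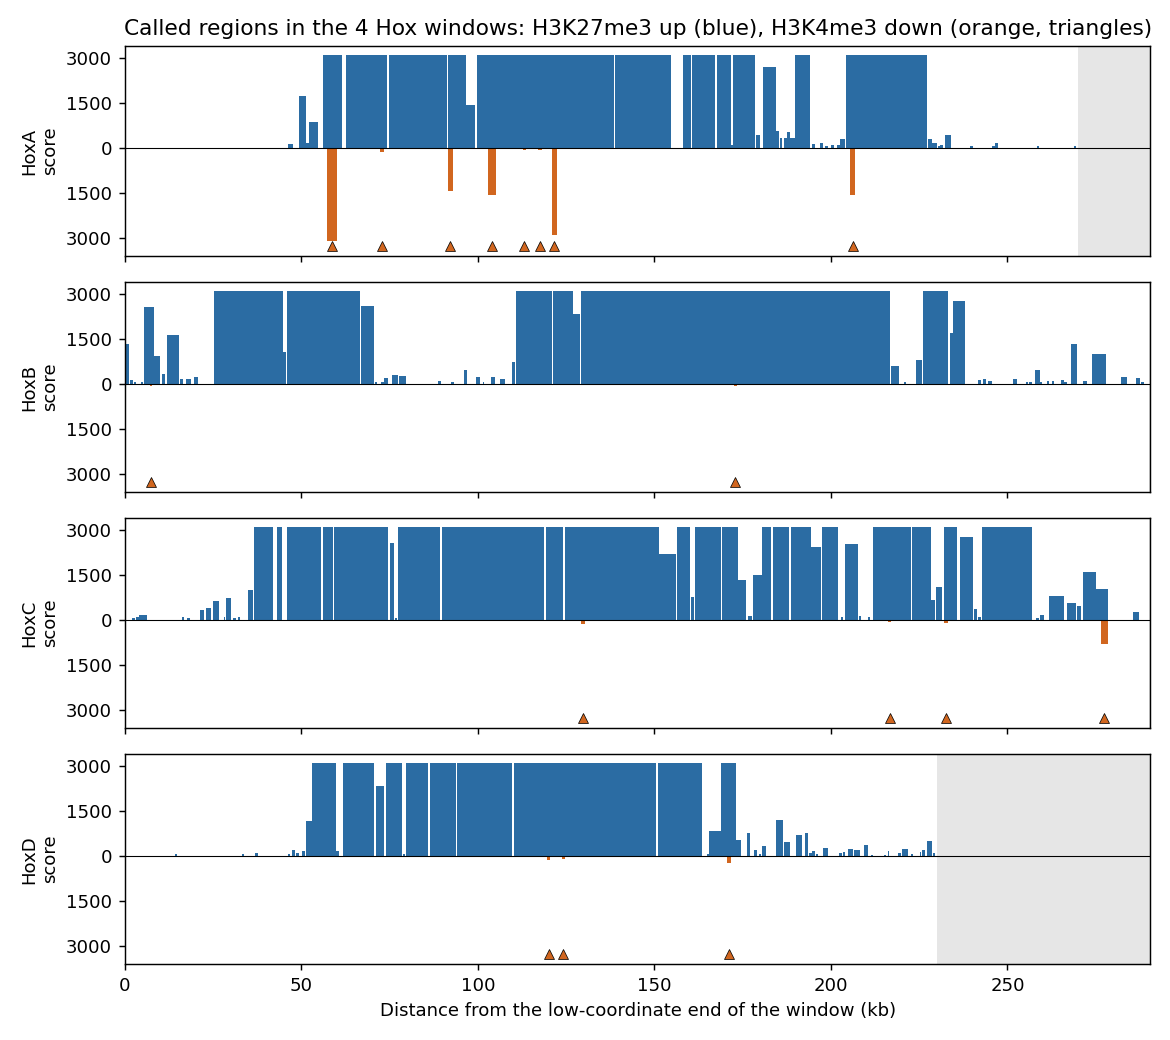
Called regions along each Hox window, with distance from its low-coordinate end (kb) on the x axis and the deposited score on the y axis, H3K27me3 upward in blue and H3K4me3 downward in orange; triangles mark every H3K4me3 region, and grey lies beyond the window. HoxA holds 8 H3K4me3 regions, 5 of them with a score of at least 1000, while the 9 of the other clusters are all lower than that. Both marks are drawn on the same score scale, but their scores are not to be compared.

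To find the borders, H3K27me3 regions were joined over gaps of up to 3 kb into domains. The windows touched 10 domains of at least 10 kb, 1 in HoxC, 2 in HoxA, 2 in HoxD and 5 in HoxB. HoxC was a single domain of 262.3 kb from 102716138 to 102978400, the sixth longest of 53714 in the list, and 88.4% of it was covered. The longest HoxD domain was 152.8 kb, from 74476261 to 74629099, with 86.8% covered. The longest HoxB domain was 149.4 kb, from 96088639 to 96238031, with 86.5% covered. In HoxA a domain of 108.4 kb (52096340 to 52204764, 93.7% covered) was followed by one of 76.0 kb (52208069 to 52284021, 89.2% covered). The gap between these HoxA domains was 3.30 kb, just above the joining distance. HoxA was thus a nearly continuous block with one narrow break. At this joining distance the HoxB window was divided into the most domains. That count takes in domains that cross the low and high edges of the HoxB window, so it depends on the window drawn.

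HoxB was divided by a stretch poor in H3K27me3. Below the longest domain lay one of 54.3 kb, from 96025310 to 96079563, with 92.5% covered. A gap of 9.08 kb (96079564 to 96088638) separated them, the widest of the 8 gaps of at least 3 kb that lie between the outermost domains of 10 kb or more of a window. Past this gap the mark was at first sparse, since only 32.9% of the first 20 kb of the longest HoxB domain was covered. The dense part began later. When regions were joined over at most 1 kb, the longest HoxB block ran from 96109622 to 96219244, a length of 109.6 kb, and 99.1% of it was covered. Under that stricter joining the dense blocks were 162.7 kb in HoxC, 117.2 kb in HoxD and 92.1 kb in HoxA, with 94.9, 94.0 and 97.4% covered. The extent of a domain therefore depended on the joining distance, while the dense blocks of 92.1 kb or more were present in each cluster.

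The borders differed in sharpness between clusters and between the ends of a cluster. The sharpest were at low coordinates in HoxA and HoxD. The 20 kb inside the low end of the HoxA domain was 77.8% covered, and the 20 kb outside it held no H3K27me3 region. The nearest one outside was 75.5 kb away. At the low end of HoxD 85.2% was covered inside and 7.27% outside. By gene order this is the side of the low-numbered genes in HoxA and the side of Hoxd13 in HoxD. The high end of HoxC also fell steeply, from 82.9 to 15.97%. Farther out the mark returned, with 100% of the 10 kb bin starting 300 kb from the low end of the window covered. At the high end of the longest HoxB domain coverage fell from 76.2 to 27.9%, and at the low end of HoxC from 51.0 to 21.8%. At the low end of the longest HoxB domain it did not fall, with 32.85% inside and 37.4% outside. At the high end of HoxD the mark faded, with 57.2% covered inside and 35.1% outside. The high end of the longest HoxA domain was no cluster border, since 79.0% of the next 20 kb was covered by the second domain.

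H3K27me3 continued into the nearest 50 kb on both sides of HoxB and HoxC, while little of it lay there next to HoxA and HoxD. In the 50 kb next to the window, 43.3% before and 31.5% after HoxB were covered. Around HoxC the values were 45.1% before and 34.0% after. Around HoxA they were 1.56% before and 6.39% after, and around HoxD 1.19% before and 1.40% after. Joined over gaps of up to 10 kb, the HoxB and HoxC domains grew to 446.4 and 431.5 kb and ran beyond their windows, at 60.7 and 70.8% covered. Those of HoxA and HoxD grew to 200.9 and 200.1 kb, and HoxD then also passed the high end of its window, ending at 74663326. The contrast did not hold at every distance. From 50 to 100 kb out, 6.47% before HoxB and 3.46% after HoxC were covered, against 37.9% before HoxC and 29.2% after HoxB.

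**Figure D3:**
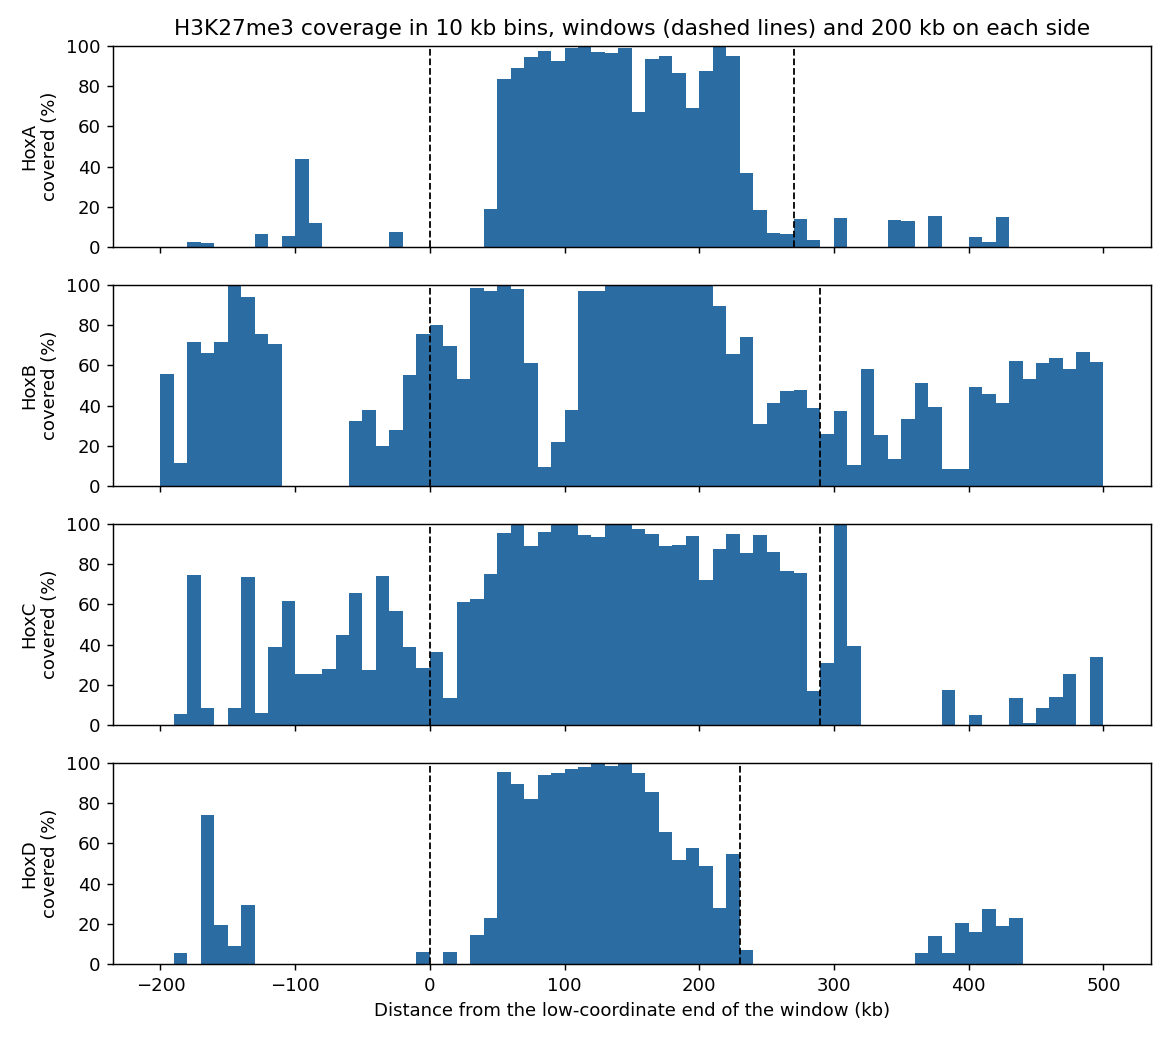
Share of each 10 kb bin covered by H3K27me3 regions (%), by distance from the low-coordinate end of the window (kb), for each window (between dashed lines) and 200 kb on either side. HoxA and HoxD rise steeply on the left from flanks with 1.56 and 1.19% in the nearest 50 kb, while HoxB and HoxC continue into flanks with 31.5 to 45.1% in the nearest 50 kb.

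H3K4me3 took up a small share of the clusters, and most of it was in HoxA. H3K4me3 regions covered 4.51% of the HoxA window (12.2 kb in 8 regions), 1.68% of HoxC (4.88 kb in 4 regions), 1.34% of HoxD (3.08 kb in 3 regions) and 0.456% of HoxB (1.32 kb in 2 regions). Among other windows of the same length, 11.2% were covered by H3K4me3 as much as HoxA, 36.9% as much as HoxC, 41.1% as much as HoxD and 58.1% as much as HoxB. The HoxB, HoxC and HoxD shares were thus ordinary for windows of their length. Over the 4 windows 1.99% was covered, against 1.80% of the assembled chromosomes.

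Every H3K4me3 region of the clusters lay in H3K27me3. All 17 shared base pairs with it, against 33.5% of all H3K4me3 regions, all 17 were covered over at least 50% of their width, against 25.3%, and 16 over the whole of it, against 9.55%. The exception was a HoxA region whose high-coordinate 98.1% was covered. At 15 of the 17 a top-score H3K27me3 region did the covering. The other 2 were the first HoxB region, under a score of 2579, and the last HoxC region, under 1029. These counts are to be read against the 71.6% of the windows that H3K27me3 covered in any case. The 99 other domains of 100 kb or more offer a closer comparison. They held 190 H3K4me3 regions, of which 189 met H3K27me3 and 107 (56.3%) were covered whole. Whether the clusters differ from those domains in this respect was not tested.

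The 8 HoxA regions were of unequal strength. The first, from 52107323 to 52109974, was 2652 bp wide and the only one of the 17 at the top score, which 52.6% of all H3K4me3 regions reach. It began 10.98 kb inside the low end of the HoxA domain. The region from 52171011 to 52172374 had a score of 2885, and those from 52152818 to 52155068, 52255500 to 52256847 and 52141492 to 52142894 had 1573, 1556 and 1434. These 5 were the only regions of the 17 with a score of at least 1000, which 62.4% of the whole list has. The remaining 3 were weak, with scores of 142 (52122144 to 52123364), 68.9 (52167038 to 52168050) and 63.5 (52162677 to 52163603). Strong and weak regions were interspersed along the chromosome.

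In position, 7 of the 8 HoxA regions lay below the midpoint of the window and started between 57.3 and 121.0 kb from its low end. By gene order the low end of the window is the side of Hoxa2, but no gene was placed on these regions. The midpoint of the window need not be that of its genes, so which genes the 7 regions lie near is not known. The 4 of them from 52152818 to 52172374, sat within a single H3K27me3 region of 21.1 kb. The eighth stood alone at 205.5 kb from the window start, 83.1 kb beyond its neighbour, within the 22.8 kb region that was the widest in HoxA. The stretch of 83.1 kb without H3K4me3 between them was 87.0% covered by H3K27me3.

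HoxC, HoxD and HoxB held only weak H3K4me3 regions, except at one end of HoxC. In HoxC the region from 102976493 to 102978331 was 1839 bp wide with a score of 793, and it ended 69 bp before the high end of the 262.3 kb domain. The other 3 HoxC regions, starting at 102829344, 102916157 and 102932140, had scores of 132, 74.1 and 96.8. In HoxD the regions starting at 74549475, 74553702 and 74600515 had scores of 115, 96.8 and 213. All 3 lay above the midpoint of the window, and the first was close to it. By gene order the low end of the window is the side of Hoxd13, but which genes these regions lie near is not known. The first lay 73.2 kb from the low end of the longest HoxD domain and 78.5 kb from its high end. In HoxB the only regions were one of 584 bp (96007069 to 96007652, score 56.7) and one of 739 bp (96172539 to 96173277, score 64.2). Between them were 164.9 kb with no H3K4me3 region, the longest such stretch of the 4 clusters, with 78.2% in H3K27me3. A region starts at a score of 50.01 in this list, so both HoxB regions were near the lowest it holds: 2.22 and 4.26% of H3K4me3 regions scored lower.

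As a group the 17 regions were narrow. Their median width was 1092 bp, and 15 of them were narrower than the median of the whole list, 1988 bp. The 7363 H3K4me3 regions with both marks anywhere in the genome had a median of 1680 bp, and the 190 in other long domains had 1391 bp. The median score was 132 in the clusters and 513 in other long domains, while the median of the whole list was the top score itself. In HoxA alone the median was 1495, above that of the other long domains.

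**Figure D4:**
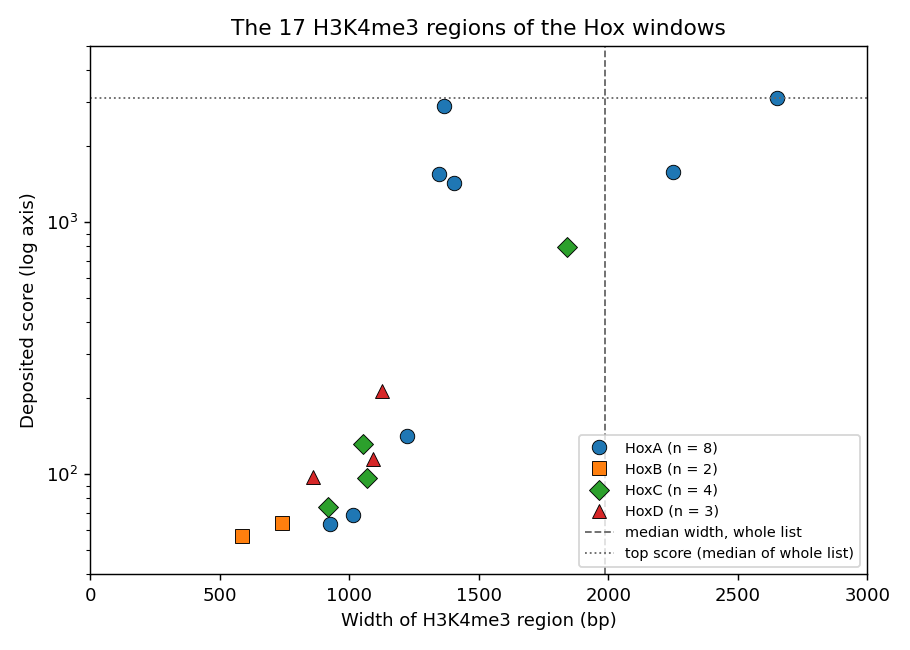
Width (bp) and deposited score (log axis) of each of the 17 H3K4me3 regions, by cluster, with the median width of all H3K4me3 regions (dashed) and the top score (dotted). The 2 regions wider than 1988 bp and the 5 with a score of at least 1000 are all from HoxA, and both HoxB regions are in the corner of low width and low score.

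Strong H3K4me3 regions with little or no H3K27me3 lay just outside the HoxC window on its high side and the HoxD window on both sides. After HoxC the next region was 2.61 kb past the window (102992613 to 102994605), at the top score and with no H3K27me3. Before HoxD one at the top score lay 12.1 kb away (74415778 to 74417904), also with none. After HoxD one at the top score lay 2.97 kb away (74662973 to 74665105), with 16.6% of it in H3K27me3. On the high side of HoxA and HoxB the next H3K4me3 regions were far off, at 268.9 and 347.3 kb. On the low side of HoxB the neighbour was 4.62 kb away, wholly under H3K27me3 and weak, with a score of 67.3. The low-side neighbour of HoxA was 23.0 kb away with a score of 383. That of HoxC was 121.4 kb away with a score of 1323, and neither of these had any H3K27me3. The HoxC window on its high side and the HoxD window on both sides thus had top-score H3K4me3 within 12.1 kb. The HoxA and HoxB windows did not. These distances run from the window edges and not from the H3K27me3 domains. The longest HoxD domain began 46.3 kb inside its window and ended 30.9 kb before the window's high end. Joined over gaps of up to 10 kb, the HoxC domain ran past the H3K4me3 region on its high side, to 103014919.

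The last comparison set the longest domain of each cluster beside the 99 other H3K27me3 domains of 100 kb or more. The Hox domains were more often at the top score. In HoxA 73.7% of the regions of the domain were at the top score, in HoxD 39.5%, in HoxC 37.9% and in HoxB 33.3%, against a median of 11.4% in the others. No other domain had a share as high as HoxA, 1 was as high as HoxD, 1 as high as HoxC and 4 as high as HoxB. In coverage they were less apart, with 86.5 to 93.7% against a median of 83.4%, and 33 of the 99 were covered as much as HoxB. By the widest region of the domain, 55 of the 99 at least equalled HoxD, 40 HoxC, 29 HoxA and 1 HoxB. The density of H3K4me3 was 6.46 regions per 100 kb in HoxA, which none of the 99 reached. It was 1.96 in HoxD, 1.53 in HoxC and 0.669 in HoxB, against a median of 1.09. The longest HoxA domain therefore stood first in top-score share and in H3K4me3 density. Of the 99 domains, 76 had at least the H3K4me3 density of HoxB. The HoxA ranks depend on the split at the gap of 3.30 kb, just above the joining distance. The second HoxA domain, of 76.0 kb, held 1 H3K4me3 region, against 7 in the longest. Ranks for the joined HoxA domains were not computed. All ranks here are within 1 library per mark.

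**Figure D5:**
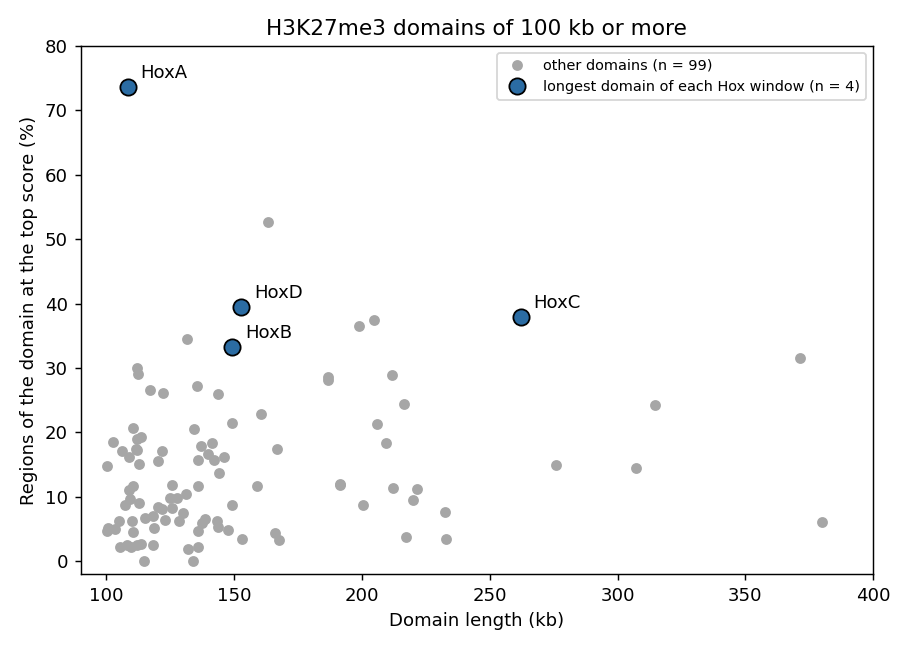
Length (kb) and share of regions at the top score (%) of all 103 H3K27me3 domains of 100 kb or more, with the longest domain of each Hox window in blue and the other 99 in grey. HoxA is the highest point at 73.7%, and the other 3 Hox domains, at 33.3 to 39.5%, lie above the median of 11.4%.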

How the data were processed

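The aligner Bowtie 1.1.2 and build mm9 come from the submitters' processing notes. The deposited lists hold 1 region per line with a start, an end, a MACS peak name and a score, per the deposited files. The score is the authors' peak caller's value, with no stated scale. The MACS version, the threshold and whether the input served as control were not stated in the sources used here. Scores were not compared between lists. Of the H3K27me3 numbering, 2 numbers are absent from the list as used, none within the Hox windows.

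Regions touching a window were clipped to it for coverage. Chromosome lengths were the last region end in either list. Domains joined regions over gaps of up to 3000 bp. Named were all H3K4me3 regions in the windows, or their immediate neighbours, and the widest H3K27me3 regions, domains and gaps. With 1 library per mark no test was made. The windows, members and measures were chosen with earlier results of these data known. Planned marker and cofactor lists were not used, since they need gene positions on mm9. The stricter score, other joining gaps and overlap rules tried are given in the closing section. Python 3.11.15, NumPy 2.4.6, pandas 2.3.3 and matplotlib 3.10.9 were used. Overlap and merging were tested on simulated data, and overlap counts differed from bedtools 2.31.1 by 0.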

Additional observations from a re-analysis of the deposited data

How the results depend on the processing

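Of 36 recomputed values 12 equalled the reported one to 3 significant digits and 24 changed. With regions under a score of 100 removed, H3K27me3 covered 61.7% of HoxA, 71.6% of HoxB, 79.6% of HoxC and 60.1% of HoxD, so the order of HoxA and HoxD turned. H3K4me3 then covered 3.79% of HoxA, 0.997% of HoxC and 0.964% of HoxD. It covered 0% of HoxB, where 0 H3K4me3 regions were left. HoxC had 2 such regions in H3K27me3 in place of 4, HoxA 6 in place of 8 and HoxD 2 in place of 3. The longest domains became 123.2 kb in HoxB, 243.6 kb in HoxC and 151.7 kb in HoxD. With only regions wholly inside the window, H3K27me3 covered 73.9% of HoxB. Joining over at most 1000 bp gave longest domains of 92.1 kb (HoxA), 109.6 kb (HoxB), 162.7 kb (HoxC) and 117.2 kb (HoxD). Joining over up to 10000 bp gave 200.9, 446.4, 431.5 and 200.1 kb, and HoxB then passed HoxC. These changes follow from fewer or more regions being joined or kept. The counts of H3K4me3 regions in H3K27me3 were the same when 50% had to be covered. No paired analysis was possible because the design holds a single library per antibody. Depth is unknown, and whether weak regions fell below the caller's threshold in HoxB was not tested.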
